A study of Mus musculus with 8 samples.

Results

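Kupffer cells are the resident macrophages of the liver sinusoids, where they take up bacteria, aged blood cells and debris from portal blood. They depend on signalling through the receptor for colony-stimulating factor 1 and carry scavenger, complement and Fc receptors. In mice they are marked by genes such as Clec4f, Vsig4 and Timd4. Collagenase perfusion frees these cells together with the hepatocytes, so that a hepatocyte preparation can hold some of them. The 33 genes described here are 7 of resident Kupffer cell identity and 26 that are shared by macrophages and other myeloid cells. They were chosen by name, with earlier results of these data known. Their array rows were those annotated with exactly 1 gene symbol equal to a listed gene. The row of highest mean was kept for each gene. All 33 had a row, out of 22180 genes with one.

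Expression was measured in primary mouse hepatocytes from p16-/- animals (KO) and from their p16+/+ littermates (WT), with 4 samples and so 4 arrays in each group. p16, a product of the Cdkn2a locus, inhibits the cyclin-dependent kinases that open the cell cycle. All 8 samples were freed by perfusion with collagenase in 2 steps and attached overnight in serum-containing Williams E medium (10% FBS) to which 25 nM dexamethasone and 100 nM insulin had been added. From 16 h after plating all were kept for 8 h in a low-glucose DMEM (1 mM glucose) with antibiotics and 0.1% BSA, and the RNA is that of 24 h. The labels give neither the age or strain of the mice nor the construction of the p16-/- allele, and name no sort of the cells. They call the samples biological replicates without tying each to its own animal, so the p-values speak of the spread among the samples measured, which may be technical.

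Values are log2 expression after the authors' normalization, changes are KO minus WT on that scale, and a gene is said to have risen or fallen where limma's p, after Benjamini-Hochberg adjustment over all 15380 genes tested, was under 0.05. Array medians were 3.76 to 3.88 and correlations between arrays were 0.973 to 0.993. KO replicate 4 stood apart on the next principal component after the leading one, at -25.2 against -8.91 to 14.6 on the other arrays, and without it 20 of the 33 genes were called. The samples carried the defining transcripts of hepatocytes. Alb, serum albumin, changed by 0.03 (adjusted p = 0.850) and Ttr, transthyretin, by 0.19 (adjusted p = 0.165), while 10 of the 13 hepatocyte genes rose, as given with the other cell types. Cdkn2a averaged 4.53 ± 0.31 in KO arrays and 4.53 ± 0.28 in WT arrays (SD, n = 4 each), with an exact permutation p of 1 over 70 arrangements. Since the position of its array row relative to the deletion is not known, that value does not check the genotype.

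Transcripts of Kupffer cells and macrophages were mostly lower in KO hepatocyte cultures. Of the 33 genes, 28 were bright enough to be tested, and 18 of these fell, 1 rose (Cd68) and 9 did not pass. Among all genes tested, 6.76% fell and 7.02% rose, 13.8% in either direction. Counted by overlap, 19 of the 33 genes had every KO array below every WT array and 1 had the opposite order, where among all 22180 genes 8.13% were lower and 6.74% higher without overlap. The median change was -0.61 over the 33 genes and -0.01 over all genes, and 30 of the 33 changes lay below 0. Timd4, Ptprc, Aif1, Cd163 and Msr1 were too dim for the test. Vsig4, Cd5l and Itgam passed the filter on low values although their KO means lay under it. In RNA from a mixed culture, fewer cells of a type and less RNA per cell cannot be told apart.

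**Figure D1:**
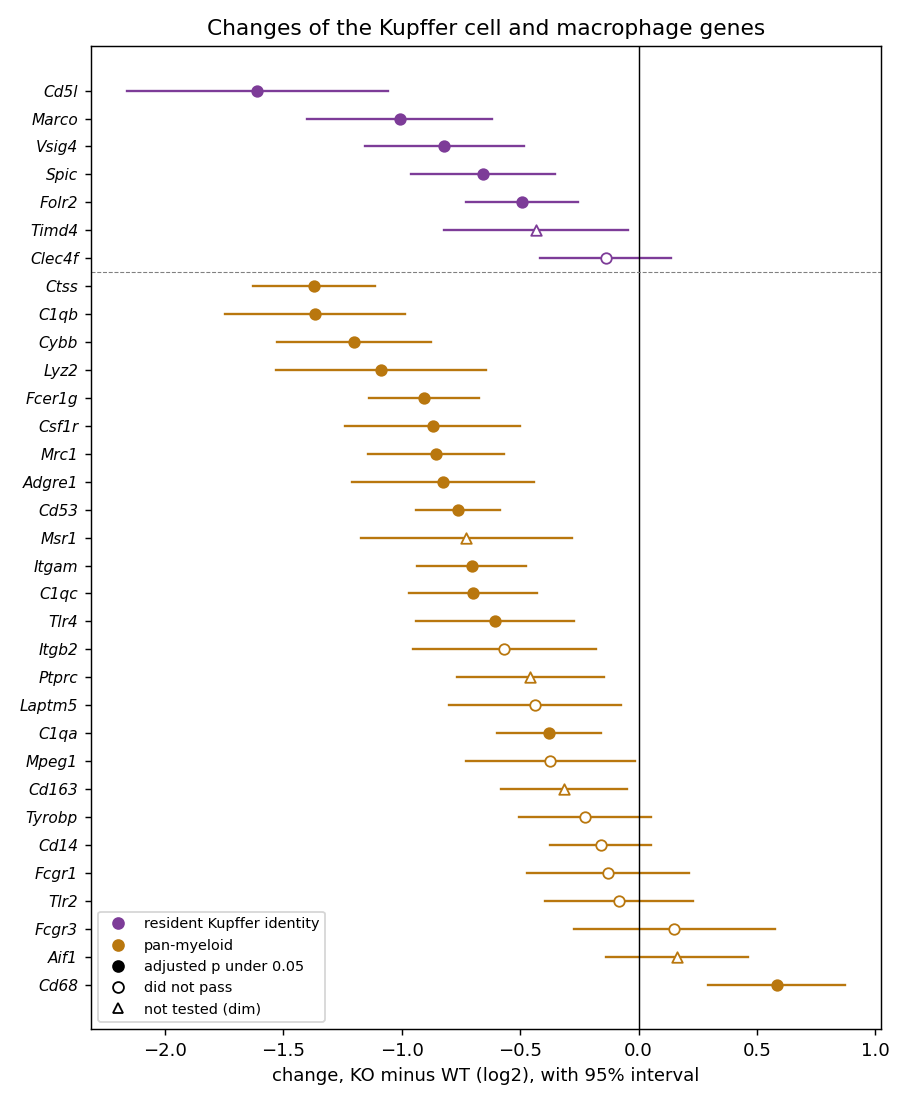
Change of each of the 33 genes, KO minus WT on the log2 scale, as a point with limma's unadjusted 95% interval as a bar; genes above the dashed line are of resident Kupffer identity and those under it are pan-myeloid, and filled points passed the test. Most filled points lie left of 0, from Cd5l at -1.61, and Cd68 at 0.58 is the only filled point to the right.

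The promoters of these genes were read for the purine box GAGGAA on either strand, a core bound by the macrophage transcription factor PU.1. Of the 33 genes, 25 had a promoter in the RefSeq table of GRCm38.p6, each of 300 bases from 250 before the start site to 50 after it. The letters occurred in 16 of the 25 (64%), against 31.3% of all 27025 promoters of the table and 29.8% of the 11984 promoters of tested genes. They occurred in 10 of 14 promoters of genes that fell (71.4%), in 5 of 10 of genes that did not pass or were not tested (50%), and in 3 of 7 of the Kupffer identity genes (42.9%). The match is a description of letters and not a binding site. Shown, 5′ to 3′ on the gene's strand, are the 250 bases before the start site of a Kupffer identity gene (Marco, chr1:120505025-120505274, minus strand), of 3 pan-myeloid genes that fell (C1qb, chr4:136886201-136886450, minus strand; Ctss, chr3:95526536-95526785, plus strand; Itgam, chr7:128062390-128062639, plus strand), and of the gene that rose (Cd68, chr11:69666171-69666420, minus strand). Capitals mark GAGGAA or, read on the other strand, TTCCTC.
Marco: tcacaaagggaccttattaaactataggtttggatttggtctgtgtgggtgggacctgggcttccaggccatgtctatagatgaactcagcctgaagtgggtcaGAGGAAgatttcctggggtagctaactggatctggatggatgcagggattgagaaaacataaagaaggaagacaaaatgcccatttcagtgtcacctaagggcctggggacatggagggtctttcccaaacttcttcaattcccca
C1qb: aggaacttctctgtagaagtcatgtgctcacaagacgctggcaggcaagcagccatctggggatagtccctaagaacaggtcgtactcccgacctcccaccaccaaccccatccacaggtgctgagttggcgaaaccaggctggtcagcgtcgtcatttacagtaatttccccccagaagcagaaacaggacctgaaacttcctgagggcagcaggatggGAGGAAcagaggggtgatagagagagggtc
Ctss: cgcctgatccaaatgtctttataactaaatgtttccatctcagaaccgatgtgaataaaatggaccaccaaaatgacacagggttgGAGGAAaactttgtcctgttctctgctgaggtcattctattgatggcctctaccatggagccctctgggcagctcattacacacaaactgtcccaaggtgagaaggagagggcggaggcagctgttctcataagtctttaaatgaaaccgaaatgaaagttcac
Itgam: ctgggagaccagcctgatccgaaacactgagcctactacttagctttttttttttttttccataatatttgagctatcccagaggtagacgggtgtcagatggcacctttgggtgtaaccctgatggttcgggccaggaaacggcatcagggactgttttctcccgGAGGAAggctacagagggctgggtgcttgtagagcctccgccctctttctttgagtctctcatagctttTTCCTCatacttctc
Cd68: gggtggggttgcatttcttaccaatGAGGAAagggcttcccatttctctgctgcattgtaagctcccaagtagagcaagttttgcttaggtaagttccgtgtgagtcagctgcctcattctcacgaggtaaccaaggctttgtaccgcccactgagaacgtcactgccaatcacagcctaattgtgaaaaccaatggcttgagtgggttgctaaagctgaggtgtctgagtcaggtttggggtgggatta
Of these sequences Itgam has 2 matches and the others 1 each. Only promoters with a match are shown, so they do not compare Cd68, which rose, with the genes that fell.

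Resident Kupffer identity was represented by 7 genes, of which 5 fell in KO cultures. Their median change was -0.66, and the smallest and largest of the 7 changes were those of Clec4f and Cd5l. Cd5l encodes a secreted protein of tissue macrophages that binds IgM and limits apoptosis. Its log2 values were 2.47, 3.04, 3.40 and 3.59 in KO arrays and 5.03, 4.65, 5.10 and 4.16 in WT arrays. Every KO array lay below every WT array, and Cd5l was 3.05-fold lower (change -1.61, SE 0.25, adjusted p = 0.00150). The KO mean of Cd5l lay under the filter, and in limma's fit without the filter the adjusted p was 0.00309. Marco, a scavenger receptor for bacteria and particles, stood at 4.54, 5.03, 4.79 and 4.96 in KO arrays and at 6.37, 5.50, 5.85 and 5.65 in WT arrays. The groups did not overlap, WT replicate 1 was the highest array, and Marco was 2.01-fold lower (change -1.01, SE 0.18, adjusted p = 0.00320).

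Vsig4 is the complement receptor with which Kupffer cells capture C3-coated bacteria. Its values were 3.33, 2.83, 2.78 and 3.05 in KO arrays against 3.66, 3.92, 4.13 and 3.57 in WT arrays, without overlap (change -0.82, SE 0.15, adjusted p = 0.00435). The KO mean of Vsig4 also lay under the filter (adjusted p = 0.00880 in limma's fit without it). Spic, a transcription factor of macrophages that recycle iron from red cells, read 3.93, 4.03, 3.77 and 3.87 in KO arrays and 4.96, 4.38, 4.59 and 4.30 in WT arrays. Again all KO arrays were lower, with WT replicate 1 the highest (change -0.66, SE 0.14, adjusted p = 0.00873). Folr2, the folate receptor beta of resident macrophages, read 3.52, 3.74, 3.70 and 3.96 in KO arrays and 4.12, 4.27, 4.17 and 4.33 in WT arrays. Its fall was the smallest of the 5 and the groups still did not overlap (change -0.49, SE 0.11, adjusted p = 0.0105).

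Clec4f, a galactose-binding lectin made in mice by Kupffer cells, did not pass. Its values were 3.92, 3.81, 3.52 and 4.04 in KO arrays and 4.17, 3.87, 3.81 and 4.00 in WT arrays. The groups overlapped, and the change was -0.14 (95% interval -0.42 to 0.14, adjusted p = 0.543). Timd4, a phosphatidylserine receptor for the uptake of dying cells, was dim, at 2.88, 2.79, 2.54 and 2.18 in KO arrays and 2.95, 3.36, 2.70 and 3.13 in WT arrays. Its groups overlapped as well, with a change of -0.43 and, in a fit without the filter, an adjusted p of 0.197.

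**Figure D2:**
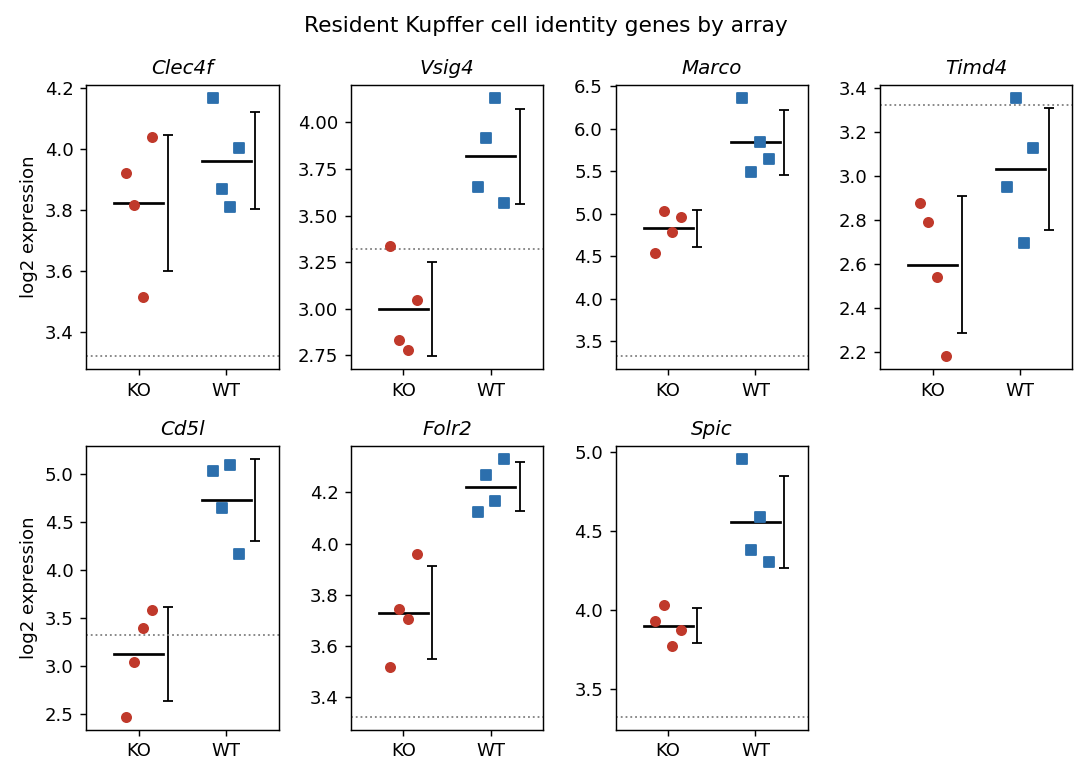
Log2 expression of the 7 resident Kupffer identity genes on each array, KO (red circles) left of WT (blue squares), with the mean as a bar and the SD of 4 arrays beside it; the dotted line is the level of 3.32 under which a gene's mean was not tested, and each panel has its own axis. The groups are apart for Vsig4, Marco, Cd5l, Folr2 and Spic and overlap for Clec4f and Timd4.

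Among the 26 pan-myeloid genes 22 were tested, of which 13 fell, 1 rose and 8 did not pass, with a median change of -0.59 over the 26. Their receptors and signalling partners begin with Csf1r, the receptor for CSF1 and IL-34 on which macrophage survival depends. Csf1r had values of 3.35, 3.86, 4.04 and 3.83 in KO arrays and of 4.29, 4.61, 4.97 and 4.67 in WT arrays. No KO array reached the lowest WT array (change -0.87, SE 0.17, adjusted p = 0.00543). Adgre1, an adhesion-type receptor used as a marker of mouse macrophages, read 4.32, 3.74, 3.68 and 4.28 in KO arrays and 4.45, 4.93, 4.91 and 5.03 in WT arrays. KO replicates 1 and 4 came close to WT replicate 1 without reaching it (change -0.83, SE 0.17, adjusted p = 0.00918). Cd53, a leukocyte tetraspanin, varied little within a group, with 4.00, 4.03, 4.08 and 4.15 in KO arrays and 4.77, 4.85, 4.81 and 4.87 in WT arrays. It fell by 0.76 (SE 0.08, adjusted p = 0.000107). Ptprc, the leukocyte surface phosphatase CD45, was dim and its groups overlapped, at 2.85 to 3.26 in KO arrays and 3.12 to 3.69 in WT arrays (change -0.46, adjusted p = 0.0813 without the filter). Aif1, the calcium-binding protein IBA1, was also dim, at 3.30 to 3.46 in KO arrays and 2.79 to 3.44 in WT arrays.

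The 3 genes of complement C1q, the recognition molecule of the classical pathway that macrophages secrete, all fell, by unequal amounts. C1qb had values of 4.98, 4.09, 4.38 and 4.32 in KO arrays and of 6.04, 5.72, 5.85 and 5.62 in WT arrays. KO replicate 1 was the highest KO array and still lay below every WT array, and C1qb was 2.58-fold lower (change -1.37, SE 0.17, adjusted p = 0.000375). For C1qc the values were 3.31, 3.82, 3.66 and 3.65 in KO arrays and 4.23, 4.53, 4.21 and 4.26 in WT arrays (change -0.70, SE 0.12, adjusted p = 0.00311). The C1qa values were 5.29, 5.21, 5.31 and 5.24 in KO arrays and 5.42, 5.78, 5.59 and 5.77 in WT arrays (change -0.38, SE 0.10, adjusted p = 0.0287). Its groups did not overlap, but the call was lost without KO replicate 1 (adjusted p = 0.0624) or 2 (0.0780), and without WT replicate 2 (0.0802), 3 (0.0525) or 4 (0.0749). It was also lost without the filter (0.0550) and with median centring (0.0523).

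The genes of the phagolysosome and of microbial killing held 3 of the falls and the single rise. Ctss encodes cathepsin S, a lysosomal protease that trims the invariant chain of MHC class II. Its values were 4.10, 3.68, 3.93 and 3.61 in KO arrays and 5.25, 5.25, 5.08 and 5.23 in WT arrays. The WT arrays lay within 0.2 of each other and far above all KO arrays, and Ctss was 2.59-fold lower (change -1.37, SE 0.12, adjusted p = 2.26e-05). Cybb, the catalytic subunit of the phagocyte NADPH oxidase, read 3.30, 3.25, 3.94 and 3.75 in KO arrays and 4.77, 4.79, 4.68 and 4.80 in WT arrays. KO replicates 1 and 2 were the lowest and all KO arrays lay below WT (change -1.20, SE 0.15, adjusted p = 0.000313). Lyz2, the lysozyme of macrophages and granulocytes, read 4.14, 4.29, 3.72 and 3.32 in KO arrays and 4.60, 5.09, 5.18 and 4.95 in WT arrays (change -1.09, SE 0.20, adjusted p = 0.00418). Laptm5, a lysosomal membrane protein of blood cells, was at 3.19 to 3.73 in KO arrays and 3.67 to 4.37 in WT arrays and did not pass (change -0.44, adjusted p = 0.110). Mpeg1, the pore-forming perforin-2, was at 3.39 to 4.29 in KO arrays and 4.17 to 4.27 in WT arrays, with KO replicate 1 above all WT arrays. Its change was -0.37 (adjusted p = 0.169), and without KO replicate 1 it passed (adjusted p = 0.0421). Without KO replicate 3 the Mpeg1 change was -0.22 (adjusted p = 0.349).

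Cd68, a heavily glycosylated protein of lysosomal membranes used as a macrophage marker, went the other way. It read 11.41, 11.52, 11.55 and 11.31 in KO arrays and 10.47, 10.91, 11.02 and 11.07 in WT arrays. Every KO array was above every WT array, with WT replicate 1 the lowest (change 0.58, SE 0.13, adjusted p = 0.0131). The Cd68 means of 11.45 in KO arrays and 10.87 in WT arrays lay far above the rest of the pan-myeloid list. The next brightest gene was Cd14, with means of 8.90 in KO arrays and 9.06 in WT arrays. On a linear scale, where bright rows weigh most, the 26 pan-myeloid values summed to 3333 to 3901 in KO arrays and 2516 to 3239 in WT arrays, the opposite direction from their median change. Without Cd68, left out after the data were seen, the other 25 summed to 797 to 896 in KO arrays and 1092 to 1159 in WT arrays. The 7 identity genes summed to 88.1 to 103 in KO arrays and 145 to 202 in WT arrays.

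**Figure D3:**
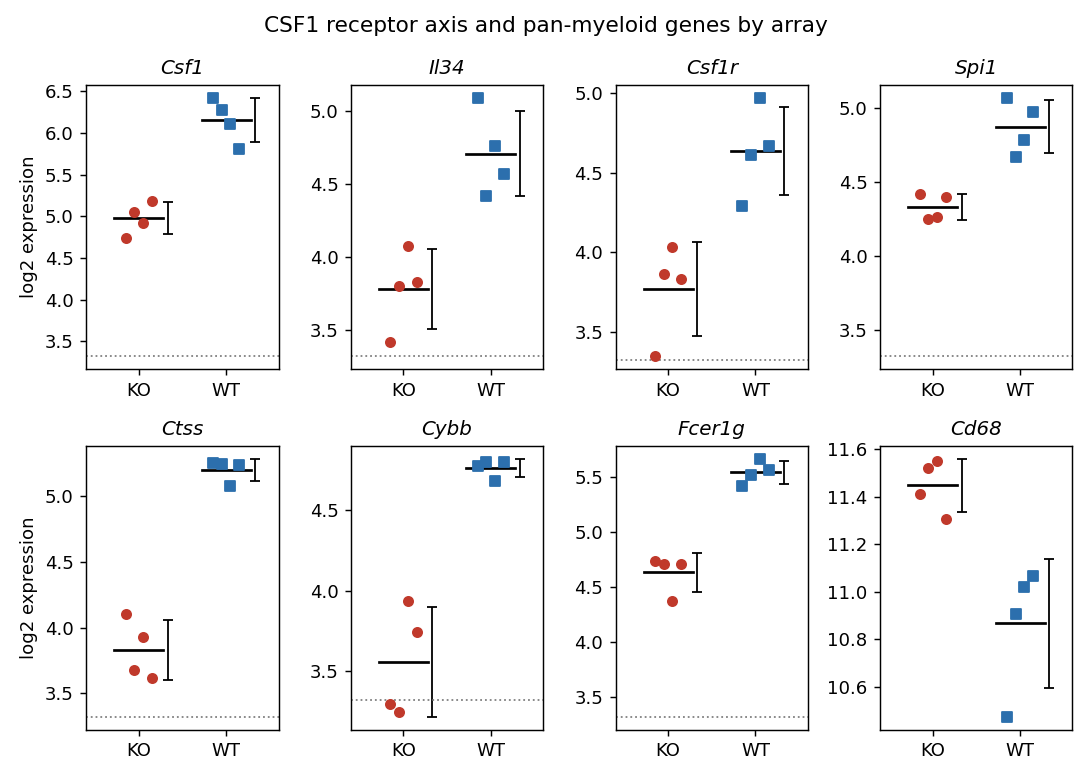
Log2 expression on each array of the ligands Csf1 and Il34, their receptor Csf1r, the transcription factor Spi1 and the pan-myeloid genes Ctss, Cybb, Fcer1g and Cd68, KO (red circles) left of WT (blue squares), with means, SD of 4 arrays and, where in range, the dotted filter level of 3.32; each panel has its own axis. KO arrays lie below WT arrays in all panels except that of Cd68, where they lie above.

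Fc receptors bind antibody-coated particles and signal through adaptors with activation motifs. One of the 4 listed genes fell. Fcer1g, the common gamma chain of Fc receptors, had values of 4.73, 4.71, 4.37 and 4.71 in KO arrays and 5.41, 5.51, 5.66 and 5.56 in WT arrays. All KO arrays were lower, KO replicate 3 the lowest of them (change -0.91, SE 0.11, adjusted p = 0.000217). Tyrobp, the adaptor DAP12, read 3.63 to 4.09 in KO arrays and 3.91 to 4.31 in WT arrays, with a change of -0.23 (95% interval -0.50 to 0.05, adjusted p = 0.298). The IgG receptors did not pass either. Fcgr1, the high-affinity receptor, read 3.36 to 3.95 in KO arrays and 3.37 to 4.01 in WT arrays (change -0.13, adjusted p = 0.666). Fcgr3, a low-affinity receptor, read 3.35 to 4.16 in KO arrays and 3.26 to 3.93 in WT arrays (change 0.15, adjusted p = 0.684).

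Of the mannose receptor Mrc1 and the scavenger receptors Msr1 and Cd163, Mrc1 was the one bright enough to be tested. Liver sinusoidal endothelial cells make the mannose receptor as well as macrophages. Mrc1 read 3.86, 4.03, 3.69 and 3.50 in KO arrays and 4.84, 4.41, 4.65 and 4.58 in WT arrays, without overlap (change -0.85, SE 0.13, adjusted p = 0.00131). Msr1, a class A scavenger receptor, was dim, at 2.29, 2.47, 2.59 and 3.00 in KO arrays and 3.40, 3.20, 2.86 and 3.80 in WT arrays. KO replicate 4 lay above WT replicate 3, so the groups overlapped, with a change of -0.73 and an adjusted p of 0.0555 in the fit without the filter. Cd163, the receptor for haptoglobin-bound haemoglobin, was also dim, at 2.99 to 3.32 in KO arrays and 3.32 to 3.65 in WT arrays (change -0.31, adjusted p = 0.167 without the filter).

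The integrin CD11b/CD18, which binds iC3b and endothelial ligands, is made of the products of Itgam and Itgb2. Itgam read 3.31, 3.16, 3.32 and 3.10 in KO arrays and 4.15, 3.81, 3.95 and 3.80 in WT arrays, the groups well apart (change -0.70, SE 0.10, adjusted p = 0.00113). The KO mean of Itgam lay under the filter (adjusted p = 0.00268 in limma's fit without it). Itgb2 read 4.31, 4.38, 3.59 and 4.49 in KO arrays and 4.93, 4.80, 4.71 and 4.60 in WT arrays. Its groups did not overlap, but KO replicate 3 lay far below the other KO arrays and the change of -0.57 (SE 0.18) did not pass (adjusted p = 0.0550). Itgb2 passed in 7 of 17 alternatives, among them without KO replicate 4 (adjusted p = 0.0377) and with the replicate number as a block (adjusted p = 0.0453). Without KO replicate 3 its change was -0.37 and did not pass. The highest adjusted p of the alternatives, 0.145, came from a different one.

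Of the 3 receptors for microbial products 1 fell. Tlr4, the receptor for lipopolysaccharide, read 4.13, 3.78, 4.09 and 4.09 in KO arrays and 4.49, 4.85, 4.93 and 4.25 in WT arrays (change -0.61, SE 0.15, adjusted p = 0.0220). The groups did not overlap, but its call was lost without KO replicate 2 (adjusted p = 0.0693), WT replicate 2 (0.0673) or WT replicate 3 (0.0613). Cd14, the coreceptor that hands lipopolysaccharide to TLR4 and that hepatocytes can also make, read 8.82, 8.97, 9.09 and 8.75 in KO arrays and 9.02, 9.14, 9.09 and 8.999 in WT arrays. The groups overlapped (change -0.16, adjusted p = 0.336). Tlr2, the receptor for bacterial lipoproteins, read 4.59 to 4.79 in KO arrays and 4.50 to 5.21 in WT arrays (change -0.08, adjusted p = 0.776).

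Averaged over genes, both groups of genes separated the arrays by genotype. The 7 identity genes deviated from their 8-array means by -0.43, -0.33, -0.44 and -0.28 on average in KO arrays and by 0.52, 0.34, 0.39 and 0.22 in WT arrays. The 26 pan-myeloid genes deviated by -0.23, -0.25, -0.32 and -0.29 in KO arrays and by 0.23, 0.29, 0.29 and 0.28 in WT arrays. Within each genotype the 4 arrays lay closer to each other than to any array of the other genotype. Whether the identity genes moved more than the pan-myeloid genes was not tested.

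Most markers of sinusoidal endothelial cells fell with the macrophage genes, those of stellate cells were mostly lower too, and those of mature hepatocytes mostly rose. Of 14 genes of sinusoidal endothelial cells, all tested, 13 fell and none rose. Their summed linear level was 435 to 503 in KO arrays and 1181 to 1343 in WT arrays, and their mean log2 level 4.71 to 4.90 in KO arrays and 5.89 to 6.08 in WT arrays. Cdh5, the VE-cadherin of endothelial junctions, changed by -2.03 (adjusted p = 4.39e-07) and Lyve1, a hyaluronan receptor of sinusoidal and lymphatic endothelium, by -1.72 (adjusted p = 6.72e-06). Of 11 stellate cell genes 5 fell and 1 rose, and 10 of the 11 changes lay below 0. These changes ran from -2.13 to 0.99, with a median of -0.40. The rise was that of Reln, the matrix protein reelin (0.99, adjusted p = 0.000591). Ecm1, an extracellular matrix protein, changed by -0.95 (adjusted p = 0.000159). The stellate cell sums were 319 to 384 in KO arrays and 465 to 511 in WT arrays. Of 13 genes of mature hepatocytes 10 rose and none fell, with sums of 39093 to 40995 in KO arrays and 31118 to 33325 in WT arrays. Arg1, the arginase of the urea cycle, singled out for the largest of these rises once values were known, stood at 9.78 to 10.03 in KO arrays and 6.73 to 7.75 in WT arrays (change 2.69, SE 0.18, adjusted p = 5.01e-06). The part of these shifts in the macrophage result was not tested.

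Markers of other blood cells and of bile duct cells gave no calls. None of the 5 tested genes of T and NK cells, the 2 of B cells and the 1 of neutrophils passed limma's test, and 0 of them had an unadjusted p under 0.05. The 10 T and NK cell genes summed to 97.1 to 125 in KO arrays and 99.2 to 108 in WT arrays. Cd3e, a chain of the T cell receptor complex, changed by -0.06, and Nkg7, a granule protein of cytotoxic cells, by 0.06. Cd79b, a chain of the B cell receptor complex, changed by -0.16 and Pax5, the B cell identity factor, by 0.0011. Cxcr2, a chemokine receptor of neutrophils, changed by 0.10, and Ltf, lactoferrin of their granules, was too dim for the test. Of 4 tested genes of cholangiocytes none passed and 1 was lower at an unadjusted p under 0.05, with Krt19, a keratin of bile ducts, at -0.24 and the transcription factor Sox9 at -0.12. Many of the blood cell genes were too dim for the test, so a change in those cells may not have been detectable here. None of the marker rows is at 0, since normalized array values have no true zero.

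**Figure D4:**
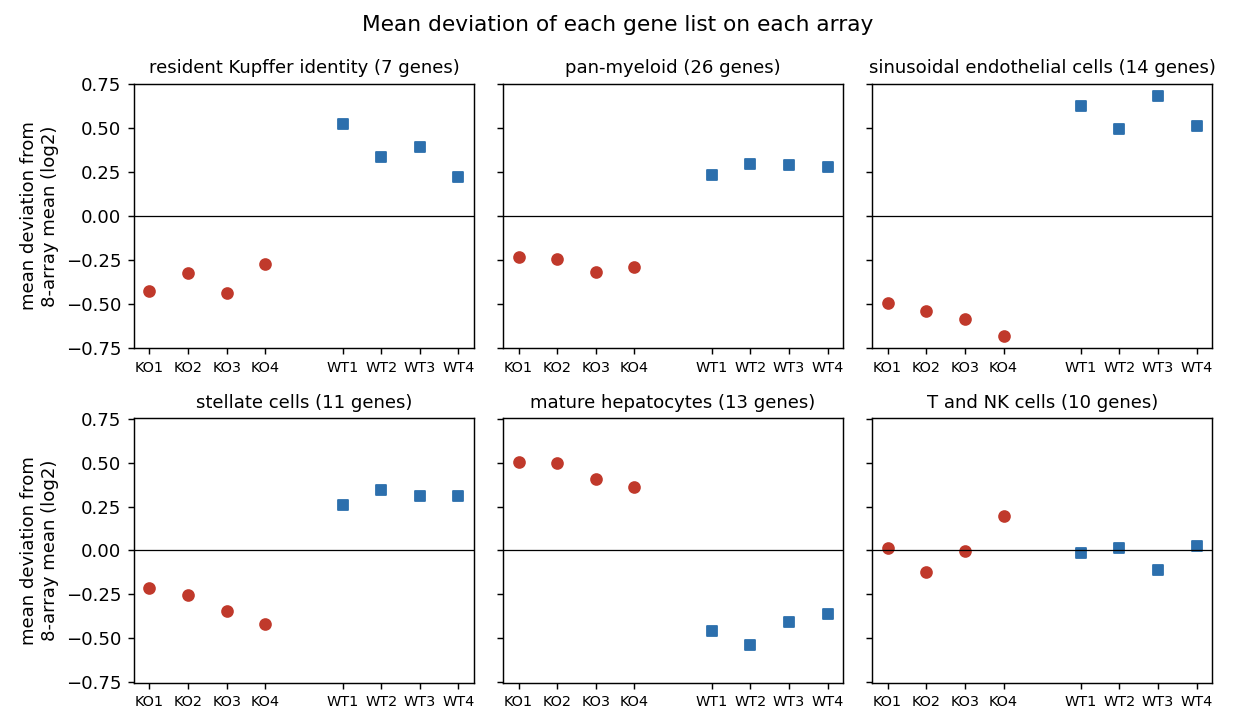
Mean deviation of each gene list from its 8-array mean, on the log2 scale, for the 4 KO arrays (red circles, left) and the 4 WT arrays (blue squares, right). The resident Kupffer identity, pan-myeloid, sinusoidal endothelial and stellate cell lists lie below 0 on every KO array and above 0 on every WT array, the mature hepatocyte list lies the other way, and the T and NK cell list scatters around 0.

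Further macrophage genes were taken as a wider set of 107 in 11 lists. Of these, 98 had a row, 77 were tested, and 19 fell and 5 rose, with a median change of -0.15. Among all genes tested 6.76% fell and 7.02% rose, so rises were about as frequent in the wider set as among all genes. The same shares stand beside the counts of the single lists below. The ligands of Csf1r both fell. Csf1, the growth factor that endothelial, stellate and other stromal cells supply to macrophages, read 4.74, 5.05, 4.92 and 5.19 in KO arrays and 6.42, 6.27, 6.11 and 5.80 in WT arrays. Each KO array was lower than each WT array (change -1.17, SE 0.14, adjusted p = 0.000277). Il34, the other ligand, read 3.42, 3.80, 4.08 and 3.83 in KO arrays and 5.09, 4.42, 4.76 and 4.57 in WT arrays (change -0.93, SE 0.17, adjusted p = 0.00335). Csf2ra, a receptor chain for GM-CSF, changed by 0.10 (adjusted p = 0.577).

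Of 6 tested transcription factors of macrophages 3 fell. Spi1 encodes PU.1, named above for the purine box, and read 4.41, 4.25, 4.26 and 4.40 in KO arrays and 5.07, 4.67, 4.78 and 4.97 in WT arrays. Its groups did not overlap (change -0.54, SE 0.11, adjusted p = 0.00583). Irf8, which drives monocyte and macrophage fate, changed by -0.43 (adjusted p = 0.0179) on its brighter row and by 0.04 on its dimmer one, and its call was lost without KO replicate 1 (adjusted p = 0.0570), WT replicate 1 (0.0559) or WT replicate 2 (0.0532). With the mean of both rows the Irf8 change was -0.20 (adjusted p = 0.282). Maf, a factor of differentiated macrophages that other liver cells express too, changed by -0.55 (adjusted p = 0.0216) and by -0.31 on its dimmer row. The Maf call was lost without KO replicate 2 (adjusted p = 0.0687) or 3 (0.0535), and without WT replicate 1 (0.0572) or 2 (0.0643).

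Receptors that pair with activating or inhibitory motifs held the largest fall of the wider set. Lilrb4a, an inhibitory receptor of myeloid cells, read 3.97, 4.37, 3.89 and 3.85 in KO arrays and 6.01, 5.83, 6.12 and 5.68 in WT arrays. All KO arrays were more than 1 log2 unit below all WT arrays (change -1.89, SE 0.14, adjusted p = 7.82e-06). Fcgr2b, the inhibitory IgG receptor, which in liver is also an endothelial gene and stands on that list too, changed by -1.20 (SE 0.11, adjusted p = 3.42e-05). Sirpa, the receptor for the CD47 signal against phagocytosis, changed by -0.72 (SE 0.12, adjusted p = 0.00229). The other 8 tested genes of that list did not pass. None of the 4 tested partners of Cybb in the oxidase passed limma's test, though 2 were lower at an unadjusted p under 0.05, with Rac2, its small GTPase, at -0.34 (adjusted p = 0.0922), Ncf4, the p40phox subunit, at -0.26 (adjusted p = 0.153) and Cyba, the p22phox subunit, at -0.17 (adjusted p = 0.457).

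Lysosomal proteins, which hepatocytes make as well, fell in 3 of 12 cases. Slc11a1, the metal ion transporter of phagosomes, fell by 0.78 (SE 0.09, adjusted p = 0.000133). Lgmn, the protease legumain, changed by -0.34 (adjusted p = 0.0213), a call lost without WT replicate 1 (adjusted p = 0.0554) or 3 (0.0582) and with median centring (0.0786). Ctsc, cathepsin C, changed by -0.36 (adjusted p = 0.0303) and lost its call without any one of KO replicates 1, 2 and 4 and WT replicates 1, 2 and 3, up to an adjusted p of 0.0942. The Ctsc call was also lost without the filter (adjusted p = 0.0585) and with median centring (0.0869).

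Among 8 tested genes of other resident macrophages 3 fell and 1 rose. The rise was that of Hmox1, heme oxygenase 1, which breaks down heme and is induced by oxidative stress in many cells. Hmox1 read 10.68, 10.42, 10.62 and 10.30 in KO arrays and 9.52, 9.05, 9.73 and 9.64 in WT arrays, all KO arrays above all WT arrays (change 1.02, SE 0.15, adjusted p = 0.000978). Clec1b, the receptor CLEC-2 for podoplanin, changed by -0.95 (SE 0.22, adjusted p = 0.0138). Mertk, a receptor for the uptake of apoptotic cells, changed by -0.54 (adjusted p = 0.0242) and lost its call without KO replicate 2 (adjusted p = 0.0683), WT replicate 1 (0.0759) or WT replicate 3 (0.0619). The third gene that fell was Slc40a1, the iron exporter ferroportin, at -0.48 (adjusted p = 0.0282), named after its value was seen. Its call was lost without the filter (adjusted p = 0.0516), with median centring (0.0534) and without any one of KO replicates 1 and 2 and WT replicates 1, 3 and 4, up to 0.0757.

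None of the tested genes of class II antigen presentation or of monocytes and dendritic cells fell in limma's test, and none was lower at an unadjusted p under 0.05. Cd86, a costimulatory protein on the class II list that was too dim for the test, lay at 2.11 to 2.24 in KO arrays and 2.45 to 2.78 in WT arrays, without overlap (change -0.42, adjusted p = 0.0256 in limma's fit without the filter). It was named after its value was seen. H2-Ab1, the beta chain of the class II molecule I-A, read 7.28, 7.55, 7.60 and 7.55 in KO arrays and 6.48, 6.96, 6.55 and 6.97 in WT arrays. It was higher in all KO arrays (change 0.75, SE 0.13, adjusted p = 0.00316), and was the only one of 5 tested class II genes to pass. H2-Aa, the alpha chain of I-A, was too dim for the test, with means of 2.69 in KO arrays and 2.75 in WT arrays (change -0.06). H2-Aa was named after its value was seen. Ciita, the master regulator of class II genes, changed by 0.20 (adjusted p = 0.269) and H2-Eb1, the beta chain of I-E, by 0.11 (adjusted p = 0.660). Of 5 tested monocyte and dendritic cell genes only Cd209a, a lectin of dendritic cells, passed. Its brighter row changed by 0.47 (adjusted p = 0.0173) and its dimmer one by 0.17. That brighter row had means of 8.35 in KO arrays and 7.88 in WT arrays, far above the rest of its list. The call was lost without WT replicate 1 (adjusted p = 0.0581) and with the mean of the rows (0.0701). Flt3, the receptor for the dendritic cell growth factor FLT3L, changed by 0.18 (adjusted p = 0.425), and Plac8, a gene of classical monocytes, by -0.12 (adjusted p = 0.533).

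Partners of Tlr4 and Cd14 went in both directions, with 2 falls and 1 rise among 7 tested. Ly96 encodes MD-2, which holds lipopolysaccharide on TLR4. It read 10.34, 10.39, 10.44 and 10.28 in KO arrays and 9.87, 9.72, 10.02 and 9.65 in WT arrays, higher in every KO array (change 0.55, SE 0.10, adjusted p = 0.00373). Cd36, a scavenger receptor and fatty acid transporter also found on endothelium, changed by -1.10 (SE 0.14, adjusted p = 0.000363), and Myd88, the adaptor of most Toll-like receptors, by -0.70 (SE 0.14, adjusted p = 0.00587).

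Of 5 tested cytokine genes 2 fell. Ccl3, the chemokine MIP-1α, read 3.83, 4.22, 3.30 and 3.37 in KO arrays and 5.15, 5.09, 5.05 and 4.58 in WT arrays, without overlap (change -1.29, SE 0.20, adjusted p = 0.00145). Il1rn, the antagonist of the IL-1 receptor, changed by -0.86 (SE 0.12, adjusted p = 0.000776). Il18, a cytokine of macrophages, changed by 0.41 without passing (adjusted p = 0.0758), and passed without KO replicate 4 (adjusted p = 0.0496). The WT mean of Il18, 3.19, lay under the filter (adjusted p = 0.126 in limma's fit without it). Of 9 tested genes of the leukocyte cytoskeleton and surface, Lcp1, the actin-bundling L-plastin, changed by 0.44 (adjusted p = 0.0267). Its means of 10.06 in KO arrays and 9.62 in WT arrays lay far above the rest of its list. Hcls1, an actin-binding adaptor of blood cells, changed by -0.37 (adjusted p = 0.0297). Lcp1 lost its call without any one of KO replicates 1, 2 and 3 and WT replicates 1 and 3, up to an adjusted p of 0.0743. It also lost the call without the filter (adjusted p = 0.0503). Hcls1 lost its call when any single array but KO replicate 4 was left out, up to 0.0788. The Hcls1 call was also lost without the filter (0.0572) and with an intensity trend in limma (0.0518, or 0.0528 in the robust fit). Cd52, a small surface glycoprotein of leukocytes, changed by -0.34 (adjusted p = 0.102).

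**Figure D5:**
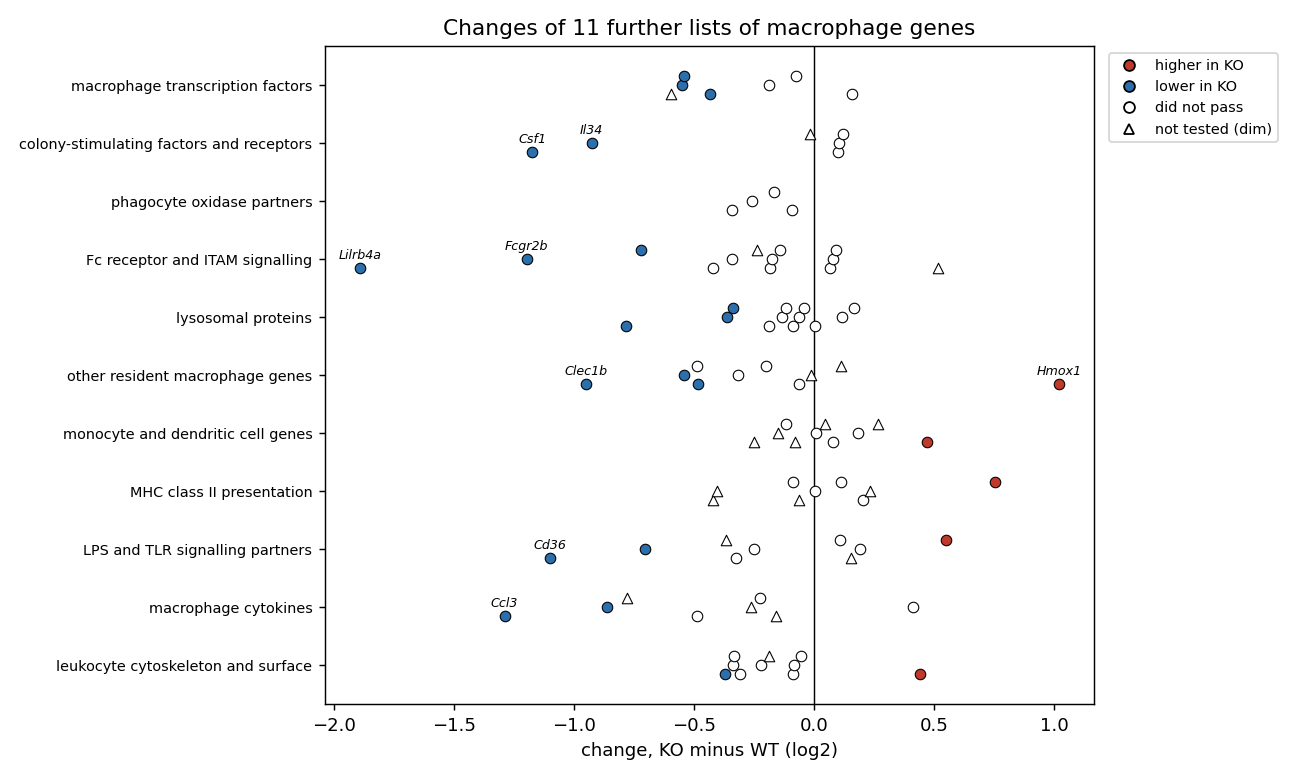
Change, KO minus WT on the log2 scale, of the wider set of macrophage genes by list, 1 point per gene; blue points fell, red points rose, open circles did not pass and open triangles were too dim to be tested. The largest fall is that of Lilrb4a at -1.89 and the largest rise that of Hmox1 at 1.02.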

How the data were processed

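RNA of 8 cultures was hybridised to Affymetrix arrays. Per the submitters' processing notes the authors made the deposited log2 values with RMA in the oligo package; the version of each is not given in the sources used here. This method forces arrays to 1 distribution, which removes a change shared by all genes and compresses changes of dim genes. Rows were named from the platform annotation, and of 41345 rows the 23521 with 1 symbol were kept. The row of highest mean stood for a gene. Tested were genes with a mean over 3.32, the 40th percentile of the row means, 15380 of 22180.

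KO and WT were compared with limma 3.58.1 (lmFit and eBayes, 6 residual and 5.05 prior degrees of freedom, two-sided) in R 4.3.3, after the procedure was tested on simulated data. Promoters and figures were handled in Python 3.11.15. Arrays have no read depth, and the 4 arrays per group limit the precision. The 33 genes and all lists were chosen with earlier results of these data known. Named genes are all 33, from each of the 11 wider macrophage lists the 3 of smallest p, from other cell type lists the 2 of highest mean, and Cdkn2a; others are said to be named after their values were seen. Alternatives were other filters, rules for genes with several rows, normalizations, variance models, array weights, a replicate block and leaving out each array. Protein sequences and listed genes without a row were not used here.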

Additional observations from a re-analysis of the deposited data

Results flagged for a closer look

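In 8 of 168 sets of 4 arrays 1 array stood apart from the other 3 of its group by Dixon's test at the 95% level, and chance flags about 1 in 20 such sets. Among the 33 genes, Fcer1g was lowest on KO replicate 3, at 4.37 where the other KO arrays had 4.71 to 4.73. Tlr4 was lowest on KO replicate 2, at 3.78 where the other KO arrays had 4.09 to 4.13. Ctss was lowest on WT replicate 3, at 5.08 where the other WT arrays had 5.23 to 5.25. In the wider macrophage set, Lgmn was lowest on KO replicate 4 (7.67, others 7.85 to 7.88), H2-Ab1 on KO replicate 1 (7.28, others 7.55 to 7.60) and Ccl3 on WT replicate 4 (4.58, others 5.05 to 5.15). Among markers of other cells, Ttr was lowest on KO replicate 1 (12.95, others 12.98) and Lyve1 on WT replicate 2 (7.90, others 8.09 to 8.12).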

How the results depend on the processing

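Of the 19 genes called among the 33, 17 kept their direction and their call in every alternative that tested them. C1qa and Tlr4 were the exceptions, and no named gene of the text that was called changed direction. With a filter at the 60th percentile 11 of the 33 genes were called, 1 of them of Kupffer identity, since that filter left fewer genes tested. Leaving out 1 array at a time gave 17 to 20 calls among the 33, 5 in each run among the identity genes, 12 to 15 among the pan-myeloid genes and 16 to 25 in the wider set. The identity median ran from -0.74 to -0.52 and the pan-myeloid median from -0.65 to -0.55. Same-numbered KO and WT arrays deviated together with correlations of only 0.0196 to 0.263, and 2 KO and 2 WT arrays correlated best with their own number, so the numbers were not taken to pair the samples. With the replicate number as a block, 20 of the 33 genes were called, 5 identity and 15 pan-myeloid, and 25 of the wider set. Of 29 called genes named outside the 33, 20 kept their call in every alternative that tested them. The 9 that did not are Irf8, Maf, Lgmn, Ctsc, Mertk, Slc40a1, Cd209a, Lcp1 and Hcls1. The summed linear pan-myeloid level was 639 higher in KO on average, and without Cd68 (chosen after seeing the data) the difference was -274. Ttr passed with an intensity trend (adjusted p = 0.0121).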
